A study of Mus musculus with 18 samples.

Results

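The question put to these data was whether giving Smim30 back to mutant macrophages undoes what its mutation did to their transcripts. The rule takes 12 of the 18 RNA sequencing libraries of the study, all from mouse peritoneal macrophages of the C57BL/6J strain, in 4 groups of 3. Mut libraries came from macrophages of mice with a mutated Smim30 gene, and WT libraries from macrophages of wild-type mice. Mut AdSmim30 libraries came from Mut macrophages that received a Smim30 overexpression adenovirus 6 h after seeding and for 24 h before stimulation. Mut AdCtrl libraries came from Mut macrophages treated likewise with a control adenovirus. Every group, WT included, was stimulated with lipopolysaccharide (LPS) at 5 ng/ml for 6 h before RNA was taken, so no unstimulated state was compared. The other 6 libraries, from the IC-21 macrophage line, did not enter the model. The series description speaks of triplicates and names neither mice nor cultures as the replicate, so the p-values here cover the spread between samples alone, and that spread may be technical. The mutated bases, the insert of the virus and whether WT mice were littermates are not given in the sources used here.

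LPS binds Toll-like receptor 4 on macrophages and switches on NF-kB, which drives cytokine and chemokine genes, and a later interferon loop, which drives antiviral genes. The same signal induces its own brakes, among them phosphatases such as Dusp1, SOCS proteins and the repressor Bcl6. Smim30 encodes a small membrane protein, and adenovirus is a common carrier for putting a gene into macrophages, which take up DNA poorly by other means.

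All 12 libraries were fitted together, which gave each gene a mutation effect (Mut minus WT), a virus effect (Mut AdSmim30 minus Mut AdCtrl) and the sum of the effects, all as log2 fold changes. The sum is 0 where the virus exactly reverses the mutation, and it equals the mutation effect where the virus does nothing. No WT group received a virus, so whether the mutation effect held under the conditions of the virus groups is not known. A called sum or a virus effect near 0 therefore does not by itself show a difference that the virus failed to reverse. Levels are scaled counts (CPM, counts normalised to library size), computed over the 12 libraries, and a gene was called at an adjusted p under 0.05 in edgeR's quasi-likelihood test with Benjamini-Hochberg adjustment over 13422 genes. The mutation and virus effects share no library.

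Assigned read pairs numbered 7947364 to 13456857 per library, so that the detection floor of 3 counts was worth 0.223 to 0.377 CPM, which covers counting error only. Macrophage markers summed to 9977 to 10481 CPM in Mut, 11059 to 11777 in WT, 9834 to 9934 in Mut AdSmim30 and 10010 to 10129 in Mut AdCtrl. The 11 T and NK cell markers summed to 0.786 to 2.46 CPM over the 12 libraries, with 2 of them, Cd3d and Ncr1, at 0 counts in all. The 10 neutrophil and eosinophil markers summed to 12.5 to 13.7 CPM in Mut, against 15.3 to 18.6 CPM in WT, and to 19.2 to 22.9 CPM in Mut AdSmim30, against 19.1 to 21.6 CPM in Mut AdCtrl, with 5 at 0 counts in all (S100a9, Ly6g, Retnlg, Epx and Prg2). Sums of further lists also separated Mut from WT. Mast cell markers summed to 8.05 to 9.64 CPM in Mut, against 6.69 to 7.85 CPM in WT. B cell markers summed to 64.2 to 66.7 CPM in Mut, against 87.4 to 97.2 CPM in WT, dendritic cell markers to 57.7 to 63.4 CPM in Mut, against 40.9 to 44.6 CPM in WT, and large peritoneal macrophage markers to 822 to 893 CPM in Mut, against 988 to 1014 CPM in WT. Some sums, mast cell markers among them, stood below Mut in both virus groups. Large peritoneal macrophage markers summed to 176 to 186 CPM in Mut AdSmim30 and 181 to 187 CPM in Mut AdCtrl. Dendritic cell markers summed to 9.66 to 10.9 CPM and 10.2 to 14.4 CPM, in the same order. Small peritoneal macrophage and monocyte markers summed to 429 to 457 CPM and 408 to 437 CPM, against 1100 to 1296 CPM in Mut. B cell markers stood above the Mut range in both virus groups. The part of these cells in the mutation and virus effects was not tested. Ribosomal RNA genes held 0.399 to 1.03% of counts in Mut, against 1.74 to 2.49% in WT, and 0.218 to 0.318% in Mut AdSmim30, against 0.225 to 0.398% in Mut AdCtrl. Fibroblast and mesothelial markers summed to 230 to 265 CPM in Mut, against 248 to 278 CPM in WT. They summed to 57.6 to 64.9 CPM in Mut AdSmim30, against 104 to 130 CPM in Mut AdCtrl, and 8 of the 9 tested fell with the Smim30 virus, where 0.41% of all genes tested did. In bulk RNA, fewer cells of a type and less RNA per cell cannot be told apart.

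Smim30, listed as 2610001J05Rik on chromosome 6 from 13867735 to 13871518 (GRCm38), was counted over its whole exonic length. It stood at 43.1, 53.4 and 51.5 CPM in Mut, against 44.8, 52.0 and 50.4 CPM in WT. It stood at 50.6, 52.2 and 54.7 CPM in Mut AdSmim30, against 45.0, 42.0 and 43.0 CPM in Mut AdCtrl. The virus groups did not overlap, which held for 14.6% of all genes tested, and the mutation groups did. Mut and WT did not overlap for 21.9% of all genes. The virus effect of 0.28 (SE 0.07) narrowly missed the threshold in the edgeR quasi-likelihood test (adjusted p = 0.0501, with 0.0052 to 0.36 over the alternatives), and the mutation effect was 0.02 (adjusted p = 0.951). A count of the full transcript shows neither a change of a few bases nor how much protein the virus gave, so the size of the re-expression is not known.

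Few of the transcripts that the mutation changed were met by a called virus effect, and in most of those few the effects had the same sign. The mutation called 1160 genes, 8.64% of all tested, of which 660 were higher (4.92%) and 500 lower (3.73%) in Mut. The virus called 81 genes, 0.603% of all tested, of which 26 were higher (0.194%) and 55 lower (0.41%) with Smim30. Both effects were called for 16 genes, which is 1.38% of the mutation's genes and 19.8% of the virus's genes. In 2 of these, Cxcl5 and Dusp1, the effects had opposite signs (0.0149% of all tested), and in 14 they had the same sign (0.104%). For 896 of the 1160 genes the virus effect was not called and its 95% interval lay within 0.32 of 0 on the log2 scale, on either side. For the other 248 it was not called and the interval was wider. Of the 896 bounded genes, 648 had a mutation effect smaller than 0.32, so for them the bound does not tell unmoved from fully reversed.

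The sum was called for 702 genes, 5.23% of all tested, 374 above 0 (2.79%) and 328 below 0 (2.44%). Among the 1160 mutation genes the sum was called for 546, or 47.1%, always with the sign of the mutation effect, and for 614 it was not called. The remaining calls of the sum were 55 genes called for the virus alone and 101 called for neither effect. A stricter contrast asked whether less than 50% of the mutation effect had been undone. It was called for 356 genes (2.65% of all tested), and for 229 of the 1160 mutation genes, all with the sign of the mutation effect. These counts include the mutation effect that chose the genes, which on average makes it look larger than it is. The virus effect used other libraries, and its median was 0.01 over genes higher in Mut (10th to 90th percentile -0.13 to 0.16), whose median mutation effect was 0.30. Over genes lower in Mut the median virus effect was -0.01 (-0.13 to 0.08), and the median mutation effect -0.26. Over all genes tested the medians were -0.00 for the mutation and 0.00 for the virus.

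The virus effect opposed the mutation effect in sign for 529 of the 1160 genes (45.6%), against 47.2% of all genes tested. Across these genes the slope of the virus effect on the mutation effect was 0.0094 and Pearson's r was 0.045 (n = 1160 genes, which are not independent replicates). Full reversal would give a slope of -1. At an unadjusted virus p under 0.05 stood 149 mutation genes (12.8%), 43 of opposite and 106 of same sign, against 1007 of all genes (7.5%), 393 of opposite and 614 of same sign. A score per library, the mean log2(CPM + 1) of genes called higher in Mut minus that of genes called lower, was 0.50, 0.40 and 0.27 in Mut, against -0.39, -0.35 and -0.34 in WT, which chose the genes. It was -0.40, -0.36 and -0.38 in Mut AdSmim30, against -0.39, -0.41 and -0.42 in Mut AdCtrl. The virus groups overlapped in this score, and both lay within or below the WT range. Mut AdCtrl, which got no Smim30 virus, thus lacked the higher score of Mut.

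**Figure D1:**
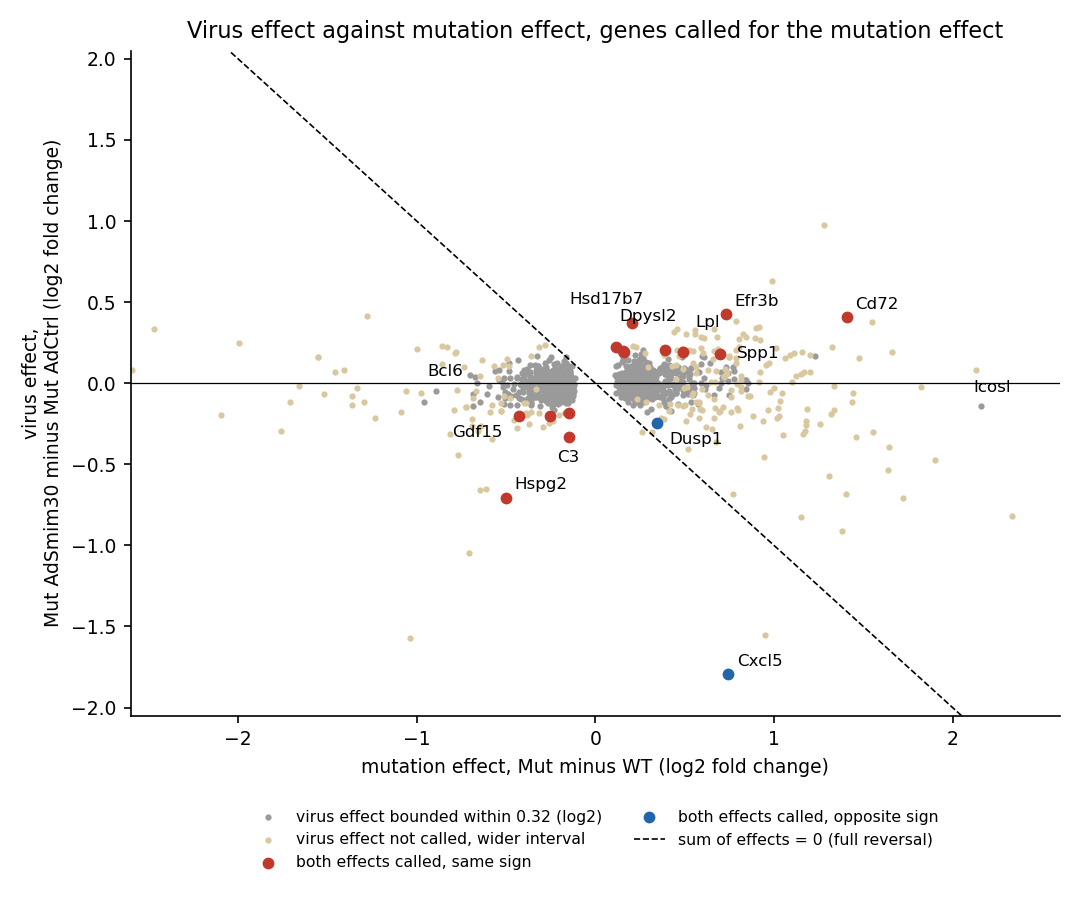
Each point is a gene called for the mutation effect, with the mutation effect (Mut minus WT) on the horizontal axis and the virus effect (Mut AdSmim30 minus Mut AdCtrl) on the vertical axis, both as log2 fold changes. It shows 1154 genes, with 6 outside the axes; the cloud lies along the horizontal line of no virus effect and not along the dashed line of full reversal, with Cxcl5 and Dusp1 in blue and the 14 genes of same sign in red.

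Genes with large mutation effects and a virus effect bounded near 0 included surface molecules and a repressor. Icosl, which encodes the partner of ICOS on T cells, was at 44.0, 47.7 and 48.7 CPM in Mut, against 11, 10.4 and 10.1 CPM in WT. It was at 42.3, 43.1 and 42.1 CPM in Mut AdSmim30, against 49.9, 50.5 and 40.2 CPM in Mut AdCtrl. The mutation groups lay far apart and the virus groups overlapped. The mutation effect was 2.16 (SE 0.10, edgeR quasi-likelihood adjusted p = 6.91e-21), the virus effect -0.14 (95% interval -0.29 to 0.01, adjusted p = 0.69) and the sum 2.02 (adjusted p = 9.51e-16). With 6.64% of the effect undone, the contrast of less than 50% was also called (adjusted p = 1.17e-09).

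Bcl6, a repressor of inflammatory genes, moved the other way, with 14, 15 and 16.3 CPM in Mut, against 29.9, 29.1 and 26.4 CPM in WT. It had 149, 155 and 151 CPM in Mut AdSmim30, against 162, 151 and 156 CPM in Mut AdCtrl, and these groups overlapped. The mutation effect was -0.89 and the virus effect -0.05 (95% interval -0.14 to 0.05), and the edgeR quasi-likelihood test called the sum of -0.94 (adjusted p = 2.12e-09). The virus comparison of Bcl6 ran at about 10 times the level of the mutation comparison, at 156 ± 5.42 CPM in Mut AdCtrl, against 15.1 ± 1.19 CPM in Mut (SD, n = 3 each).

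Fam53c stood at 83.3, 90.6 and 83.7 CPM in Mut, against 46.8, 47.8 and 48.8 CPM in WT. It stood at 117, 127 and 128 CPM in Mut AdSmim30, against 117, 121 and 128 CPM in Mut AdCtrl. Those virus values overlap almost completely, and the virus effect was 0.02 (95% interval -0.08 to 0.12) beside a mutation effect of 0.84 and a sum of 0.86 (edgeR quasi-likelihood adjusted p = 7.76e-11). P2ry6, a receptor for extracellular nucleotides, averaged 22.4 ± 2.55 CPM in Mut and 9.50 ± 1.35 CPM in WT, and 54.2 ± 1.06 CPM in Mut AdSmim30 and 48.3 ± 1.97 CPM in Mut AdCtrl (SD, n = 3 each). Its virus groups did not overlap, in the direction of the mutation, but the virus effect of 0.17 was not called (adjusted p = 0.53, edgeR quasi-likelihood test).

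Cd40, a costimulatory receptor, averaged 258 ± 34.2 CPM in Mut and 144 ± 7.09 CPM in WT, and 49.9 ± 3.83 CPM in Mut AdSmim30 and 49.4 ± 3.13 CPM in Mut AdCtrl (SD, n = 3 each). C4b, a complement component, averaged 14.6 ± 1.71 CPM in Mut and 28.4 ± 1.33 CPM in WT, and 28.4 ± 4.89 CPM in Mut AdSmim30 and 30.9 ± 2.82 CPM in Mut AdCtrl. For both the virus effect was near 0, at 0.02 for Cd40 (95% interval -0.21 to 0.25) and -0.11 for C4b (-0.31 to 0.08). The virus group means of C4b stood at or near the WT mean, and those of Cd40 below the WT mean. These virus effects therefore do not show a mutation difference left in place. Lfng, a glycosyltransferase that modifies Notch receptors, had a virus effect of -0.00 (-0.20 to 0.20) beside a mutation effect of 0.86. Tmem171, a membrane protein, had -0.04 (-0.32 to 0.24) beside 0.84, and its sum did not pass (edgeR quasi-likelihood adjusted p = 0.0995).

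**Figure D2:**
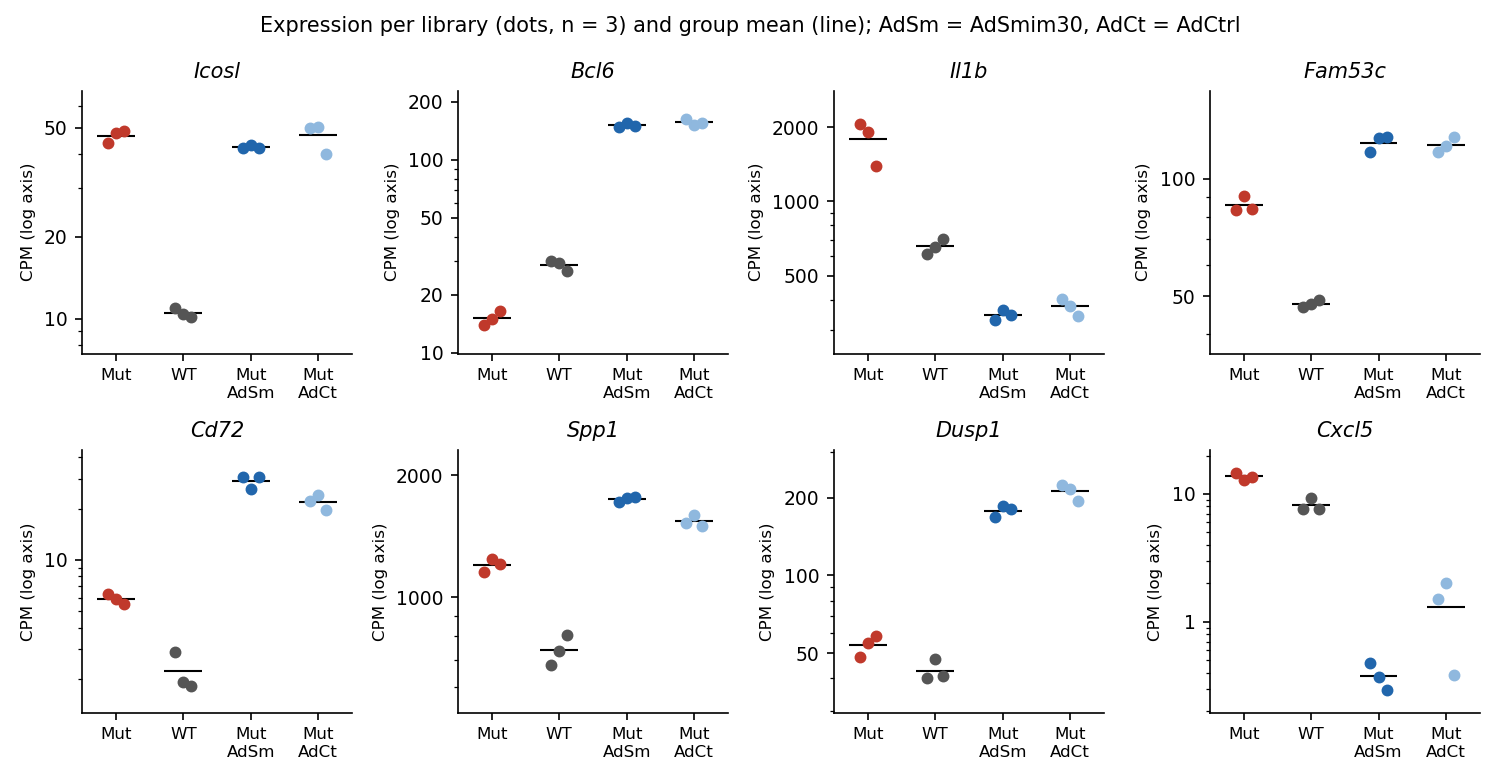
CPM on a log axis in every library (dots) with group means (lines, n = 3) for 8 genes, in the order Mut, WT, Mut AdSmim30 (AdSm) and Mut AdCtrl (AdCt). Icosl, Bcl6, Il1b and Fam53c separate Mut from WT and overlap between the virus groups, Cd72 and Spp1 are higher in Mut and with the Smim30 virus, and Dusp1 and Cxcl5 are higher in Mut and lower with the Smim30 virus.

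How much could be said depended on the size of the mutation effect. Of 76 genes with a mutation effect of at least 1, which is 2-fold, 0 were called for both effects with opposite sign in the edgeR fit and 1 with the same sign (Cd72), 2 had the virus effect bounded within 0.32 (Icosl and P2ry6) and 32 had a called sum. At an unadjusted virus p under 0.05, 4 of the 76 were higher and 2 lower with the virus. In 4 of these the virus effect had the opposite sign to the mutation effect. DESeq2 called 0 of the 76 for the virus in either direction, and limma-voom called 1 higher and 0 lower. The median share undone was 1.70% (quartiles -10.1 and 19.3%), and 44 were called neither for the sum nor for the virus. Of 134 genes between 0.58 and 1 on the same scale, 59 had a called sum and the median share undone was -5.21%, where a negative share means a virus effect with the sign of the mutation effect. Of 279 genes between 0.32 and 0.58, 166 had a called sum. For the 671 genes under 0.32 the bound does not exclude full reversal, since the whole mutation effect is smaller than the bound, and 289 of them had a called sum. Intervals of the virus effect were wide for the 76 genes, with a median half-width of 0.67, against 0.12 for all 1160. The half-width was not taken for the 44 alone.

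**Figure D3:**
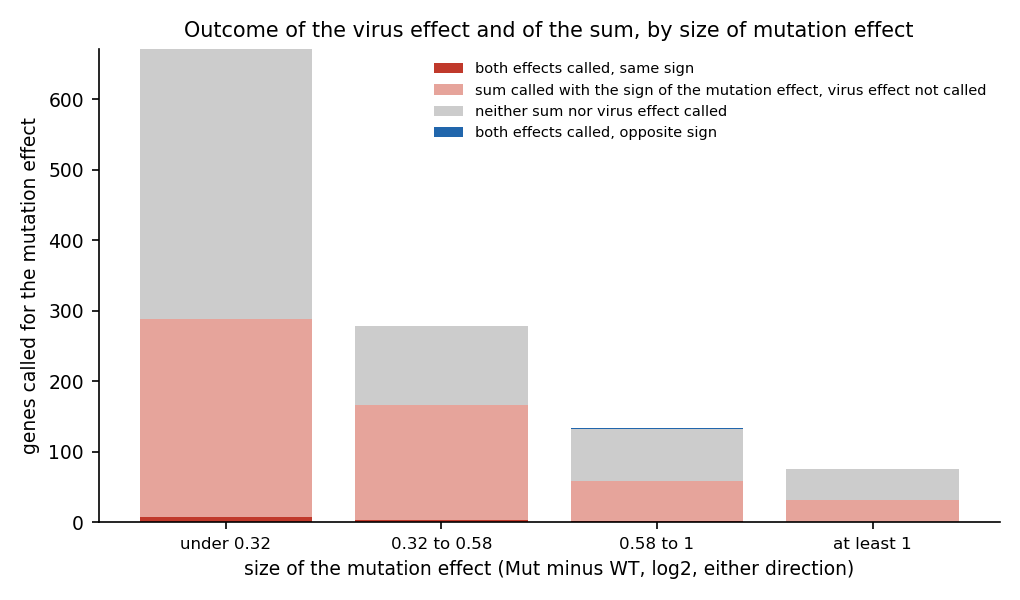
Bars count the 1160 genes called for the mutation effect by the size of that effect (Mut minus WT, log2, either direction), from under 0.32 to at least 1. Grey marks the 382, 112, 74 and 44 genes called neither for the sum nor for the virus effect, light red those with a called sum and no called virus effect, dark red those called for both effects with the same sign, and blue those with opposite signs, which are too few to see in most bars.

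Different starting levels entered the sum, because Mut AdCtrl cells differed from Mut cells in the virus, the time they spent in culture and the experiment they belonged to, which cannot be told apart. Of the 1160 genes, 545 had a level in Mut AdCtrl within 1.5-fold of that in Mut, and 380 lay over 2-fold away (32.8%, against 16.6% of all genes tested). The share with a virus effect of opposite sign was 45.7% among the 545 and 45.0% among the 380. Distance was taken in either direction, and 1.5-fold (0.585 on the log2 scale) exceeds the median mutation effect of 0.28. The split therefore does not separate genes at the Mut level from genes at the WT level, and nothing is concluded from it.

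Most cytokine and chemokine genes called higher in Mut had a virus effect of opposite sign, small and mostly not called. Of 19 tested inflammatory cytokines, 11 rose and 0 fell with the mutation (median 0.43), and 0 passed in either direction with the virus (median -0.14), where 1 had an unadjusted p under 0.05 and DESeq2 and limma-voom also called 0. Of 18 chemokines, 10 rose and 0 fell with the mutation (median 0.58), while with the virus Ccl6 and Ccl9 rose and Cxcl5 fell (median -0.08). Over all genes tested, 4.92% rose and 3.73% fell with the mutation, and 0.194% rose and 0.41% fell with the virus. Of the 21 members called for the mutation effect, 19 had a virus effect of opposite sign, or 90.5%, against 46.7% of all genes called higher in Mut. The virus effect was called for 2 of the 21, Cxcl5 (lower) and Ccl9 (higher). The median virus effect of the 21 was -0.17 beside a median mutation effect of 0.62, and the median share undone was 23.9%. The grouping was looked at after values were known, the genes share regulators and libraries, and no p is given for it. Virus effects below 0 were not particular to these 21 genes. They were found in 17 of the 19 tested cytokines, whether or not the mutation called them, and in 12 of the 18 chemokines. They were also found in 18 of 20 NF-kB genes, of which the mutation called 5, and in 15 of 16 immediate early genes, of which it called 6. Among type I interferon genes 26 of 44 had them.

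By library, the mean log2(CPM + 1) of these 21 genes was 7.42, 7.22 and 7.09 in Mut, against 6.50, 6.61 and 6.59 in WT. It was 5.26, 5.29 and 5.26 in Mut AdSmim30, against 5.52, 5.46 and 5.30 in Mut AdCtrl. The virus groups did not overlap, but the lowest Mut AdCtrl library lay close above the Mut AdSmim30 range. Both virus groups stood below the WT range, so opposite sign here does not mean a level nearer to WT. Without Mut AdCtrl replicate 1 the median virus effect was -0.07 and the median share undone 12.6%. Over the fits that left out a library each, 18 to 20 of the 21 genes had a virus effect of opposite sign. In the same libraries the fibroblast and mesothelial markers summed to 57.6 to 64.9 CPM in Mut AdSmim30, against 104 to 130 CPM in Mut AdCtrl, and their part in this result was not tested.

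Among single cytokines, Il1b, which encodes the pyrogenic cytokine interleukin-1 beta, was at 2055, 1904 and 1395 CPM in Mut, against 615, 653 and 705 CPM in WT. It was at 331, 363 and 346 CPM in Mut AdSmim30, against 404, 378 and 344 CPM in Mut AdCtrl. Both virus groups of Il1b stood below the WT range. The mutation groups stood apart and the virus groups overlapped, with a mutation effect of 1.44 (edgeR quasi-likelihood adjusted p = 0.000257), a virus effect of -0.12 (95% interval -0.44 to 0.21, adjusted p = 0.935) and a sum of 1.32 (adjusted p = 0.00507).

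Tnf, the tumour necrosis factor gene, was at 2375, 2152 and 2076 CPM in Mut, against 1784, 1890 and 1820 CPM in WT. It was at 1763, 1840 and 1824 CPM in Mut AdSmim30, against 1937, 1926 and 1747 CPM in Mut AdCtrl. Both virus groups of Tnf stood near the WT range and below the Mut range. A small virus effect therefore does not show a mutation difference left in place. The virus groups overlapped, and the sum of 0.22 kept the sign of the mutation effect of 0.26 (edgeR quasi-likelihood adjusted p = 0.031 for the sum, not passed in 7 of 21 alternatives, limma-voom among them, with up to 0.161). Cxcl2, an attractant of neutrophils, had a mutation effect of 0.45, a virus effect of -0.06 (95% interval -0.16 to 0.04) and a sum of 0.39 (adjusted p = 0.000346, edgeR quasi-likelihood test).

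Il6, which encodes interleukin-6, could not be judged. It averaged 97.4 ± 20.5 CPM in Mut and 42.7 ± 0.244 CPM in WT, but 1.36 ± 0.706 CPM in Mut AdSmim30 and 1.52 ± 0.164 CPM in Mut AdCtrl (SD, n = 3 each). At that level the virus effect of -0.23 had a 95% interval of -1.45 to 0.99, and the sum of 0.95 did not pass (edgeR quasi-likelihood adjusted p = 0.467). Cxcl3, a relative of Cxcl2, was likewise at 20.9 ± 3.57 CPM in Mut AdSmim30 and 23 ± 1.31 CPM in Mut AdCtrl, beside 1172 ± 42.5 CPM in Mut and 713 ± 35.7 CPM in WT. Its virus effect was -0.14 and its sum of 0.57 passed (adjusted p = 0.00638, edgeR quasi-likelihood test). Nos2, the inducible nitric oxide synthase, passed for neither effect, at 32.3 ± 21.4 CPM in Mut and 15.2 ± 3.53 CPM in WT, and 1.84 ± 0.737 CPM in Mut AdSmim30 and 1.75 ± 0.0779 CPM in Mut AdCtrl.

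Cxcl10, an interferon-induced attractant of T cells, was at 86.5, 69.1 and 59.7 CPM in Mut, against 37.8, 38.5 and 34.9 CPM in WT. It was at 12.4, 14.7 and 13.3 CPM in Mut AdSmim30, against 21.5, 18.6 and 15.2 CPM in Mut AdCtrl. Neither pair of groups overlapped. The virus effect of -0.46 would undo 48.5% of the mutation effect of 0.94, but it did not pass (95% interval -0.83 to -0.09, edgeR quasi-likelihood adjusted p = 0.49, with 0.00161 to 0.96 over the alternatives). It passed in 4 of 22 alternatives, namely with each effect on its own 6 libraries, with no filter, and without Mut replicate 1 or 3. The sum of 0.49 did not pass either (adjusted p = 0.268), so Cxcl10 was shown neither to be reversed nor to be left in place.

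**Figure D4:**
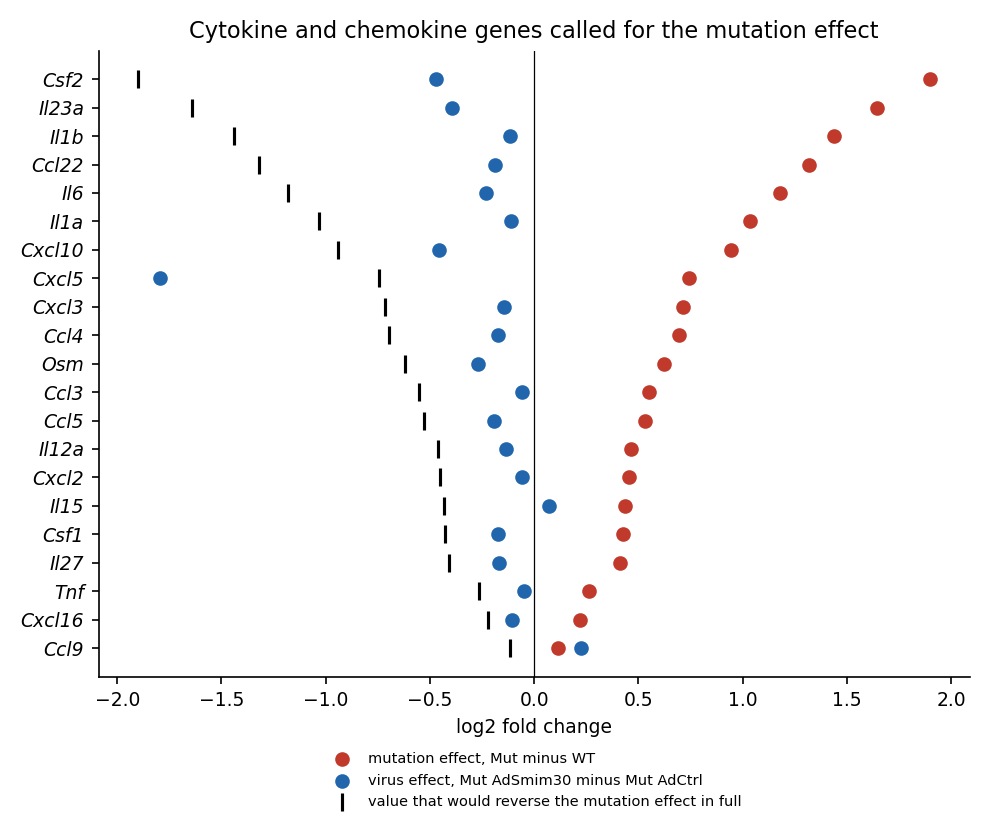
The 21 cytokine and chemokine genes called for the mutation effect, with the mutation effect (Mut minus WT, red), the virus effect (Mut AdSmim30 minus Mut AdCtrl, blue) and the value that would reverse the mutation in full (black bars), all as log2 fold changes. Blue points lie left of 0 for 19 of 21 genes, and past the black bar for Cxcl5.

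Cxcl5, a further attractant of neutrophils, was 1 of the 2 genes called for both effects with opposite sign. It was at 14.6, 12.9 and 13.7 CPM in Mut, against 7.63, 9.35 and 7.66 CPM in WT. It was at 0.472, 0.371 and 0.295 CPM in Mut AdSmim30, against 1.52, 2.02 and 0.386 CPM in Mut AdCtrl. The virus groups overlapped and stood near the floor, with a lowest raw count of 4 in each. The virus effect was -1.80 (SE 0.44, edgeR quasi-likelihood adjusted p = 0.035) beside a mutation effect of 0.75, and the sum of -1.05 did not pass (adjusted p = 0.237). The virus call was lost in 7 of 21 alternatives, among them the fits without Mut AdCtrl replicate 1 or 2 or without any single Mut AdSmim30 library. The fall ran beside that of the fibroblast markers, whose part in it was not tested.

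Dusp1, the phosphatase that switches off p38 and JNK kinases after LPS, was the other. It was at 48.6, 54.7 and 58.3 CPM in Mut, against 40.2, 47.6 and 41.1 CPM in WT. It was at 168, 186 and 180 CPM in Mut AdSmim30, against 225, 216 and 193 CPM in Mut AdCtrl. Neither pair of groups overlapped, and Dusp1 was higher in Mut and lower with the Smim30 virus. The mutation effect was 0.34 (SE 0.08, edgeR quasi-likelihood adjusted p = 0.00585), the virus effect -0.25 (SE 0.06, adjusted p = 0.0473) and the sum 0.10 (95% interval -0.11 to 0.30, adjusted p = 0.707), which amounts to 72.2% undone. Both virus groups of Dusp1 stood above the Mut and WT ranges, so the share undone does not mean a return to the WT level. The virus call was lost in 7 of 22 alternatives (adjusted p up to 0.399), and the mutation call without WT replicate 3 (adjusted p = 0.0539, edgeR quasi-likelihood test).

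Of the 16 genes called for both effects, 13 had a promoter window in the RefSeq table of GRCm38.p6, which spans 250 bases before to 50 bases after the start of the gene. The windows were searched on both strands for the full cAMP response element TGACGTCA, the palindrome bound by CREB factors. It was found in the window of Dusp1 and in no other of the 13 genes, and it occurs in 1.79% of all 32851 windows. The window, on the minus strand at chr17:26508423-26508722, is shown because Dusp1 is the gene of opposite sign that was well expressed in every group. Capitals mark the motif, which describes these letters and not a site of binding.
Dusp1: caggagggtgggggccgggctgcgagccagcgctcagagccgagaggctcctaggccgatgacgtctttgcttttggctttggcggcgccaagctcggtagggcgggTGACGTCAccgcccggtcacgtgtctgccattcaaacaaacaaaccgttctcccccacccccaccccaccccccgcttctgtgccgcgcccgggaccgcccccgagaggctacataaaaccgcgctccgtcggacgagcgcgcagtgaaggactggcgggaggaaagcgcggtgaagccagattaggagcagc

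Among regulators that restrain the LPS response, the virus called Dusp1 alone. Of 23 tested anti-inflammatory regulators, 10 rose and 3 fell with the mutation (median 0.24), and 0 rose and 1 fell with the virus (median -0.12), where 7 had an unadjusted p under 0.05, all lower. For this and the lists below, the mutation raised 4.92% and lowered 3.73% of all genes tested. The virus lowered 0.41% of all genes, and 7.5% had an unadjusted virus p under 0.05. Cish, a SOCS family member, was at 47.7, 34.3 and 24.5 CPM in Mut, against 13.1, 12 and 13.2 CPM in WT, and its virus groups overlapped, at 5.26 to 6.61 CPM in Mut AdSmim30 and 5.11 to 6.39 CPM in Mut AdCtrl. Its sum of 1.38 was called (edgeR quasi-likelihood adjusted p = 0.0466), but not in 11 of 21 alternatives, among them limma-voom and each fit without 1 virus library (adjusted p up to 0.223). Socs3, which limits signalling by interleukin-6 type receptors, had a mutation effect of 0.57, a virus effect of -0.13 and a sum of 0.44. Zfp36, which destabilises cytokine mRNAs, had 0.29, -0.18 and 0.11, and its virus effect did not pass (adjusted p = 0.31, edgeR quasi-likelihood test). Nr4a1, a nuclear receptor that fell with the mutation (-0.77), had a virus effect of -0.44 in the same direction that did not pass, and a called sum of -1.21, which the fits omitting Mut AdSmim30 replicate 2 and omitting Mut AdCtrl replicate 1 did not call. Of 16 immediate early genes, 6 rose with the mutation and 1 fell with the virus. That gene, Egr1, was at 63.8 ± 3.29 CPM in Mut AdSmim30 and 77.5 ± 5.47 CPM in Mut AdCtrl (SD, n = 3 each), and did not pass for the mutation. Its virus effect of -0.28 (edgeR quasi-likelihood adjusted p = 0.0377) was not called in 8 of 22 alternatives, among them DESeq2, the fit over all 18 libraries and each fit without 1 Mut AdSmim30 library or without Mut AdCtrl replicate 1 or 2 (adjusted p up to 0.572). Among 20 subunits and feedback genes of NF-kB, 5 rose and 0 fell with the mutation and 0 passed with the virus, where 7 had an unadjusted p under 0.05, all lower, and DESeq2 and limma-voom called 0.

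Interferon-responsive genes rose with the mutation, and 0 were called for the virus by edgeR, DESeq2 or limma-voom. The mutation raised 33 and lowered 0 of 44 tested type I interferon genes (median 0.56), 1 had an unadjusted virus p under 0.05 (median virus effect -0.03), and the sum was called above 0 for 8. Of 13 interferon-inducible GTPases, 8 rose with the mutation (median 0.58) and 0 had an unadjusted virus p under 0.05 (median virus effect 0.01). Beside both lists, 4.92% of all genes tested rose and 3.73% fell with the mutation, and 7.5% had an unadjusted virus p under 0.05. Ifi211, a member of the interferon-inducible p200 family, had a mutation effect of 0.61, a virus effect of -0.04 and a sum of 0.57. Rtp4, an interferon-induced inhibitor of viral replication, had 0.54, -0.02 and 0.51. Both sums passed, with adjusted p = 0.00014 and 0.00096 in the edgeR quasi-likelihood test. Ifit2, an antiviral protein that binds RNA, was at 386, 223 and 191 CPM in Mut, against 106, 144 and 120 CPM in WT. It was at 21.9, 30.3 and 25.4 CPM in Mut AdSmim30, against 29.3, 21.3 and 26.7 CPM in Mut AdCtrl. Mut libraries of Ifit2 spread widely and the virus groups overlapped, so that the sum of 1.11 did not pass (adjusted p = 0.277, edgeR quasi-likelihood test). The mutation call of Ifit2 (adjusted p = 0.0374, same test) was lost in 14 of 22 alternatives, limma-voom among them (adjusted p up to 0.208). Mutation calls of Slfn1, Iigp1 and Tgtp2 were lost in 4, 8 and 7, and those of Ifi44 and Gbp9 in 0.

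**Figure D5:**
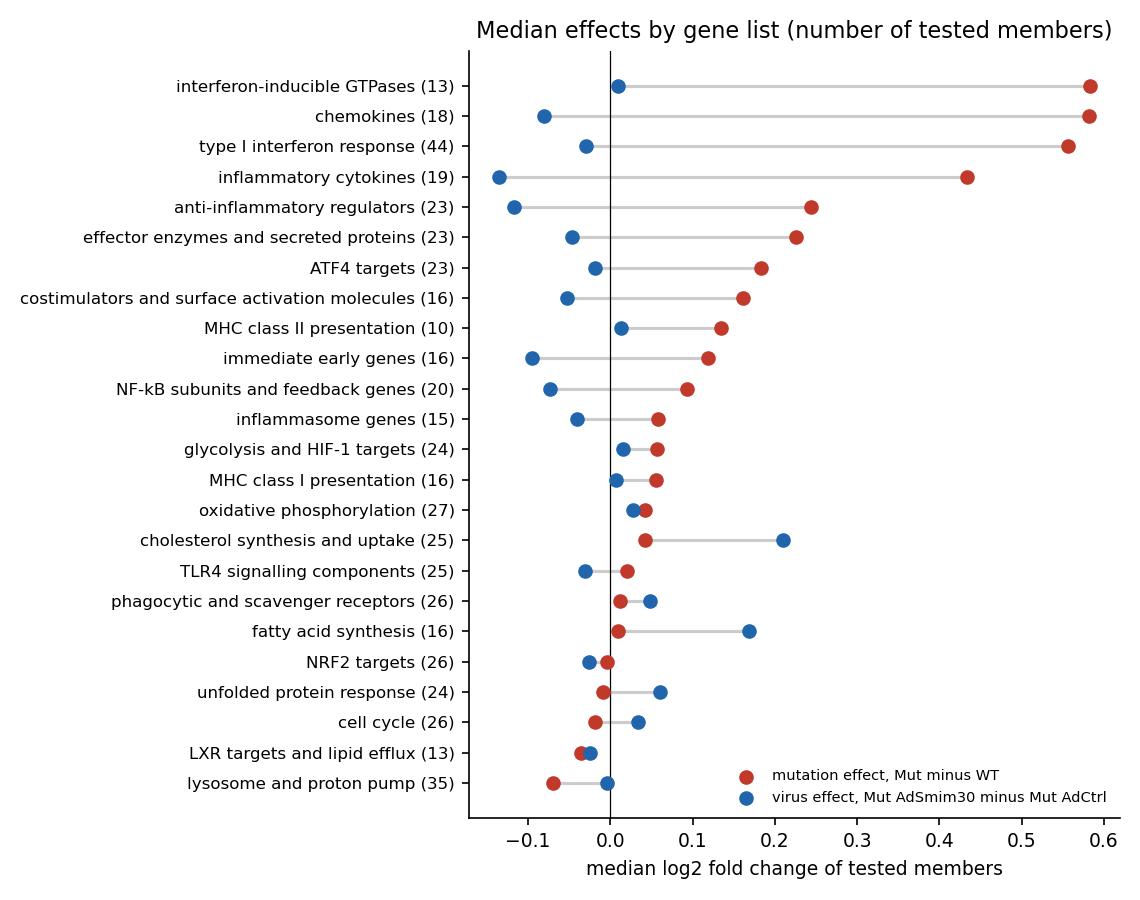
Median log2 fold change over the tested members of each gene list (number in brackets), for the mutation effect (Mut minus WT, red) and the virus effect (Mut AdSmim30 minus Mut AdCtrl, blue). Cytokines, chemokines, interferon genes and GTPases have red medians of 0.43 to 0.58 with blue medians of -0.14 to 0.01, while for cholesterol and fatty acid synthesis the blue medians, 0.21 and 0.17, exceed the red ones.

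Both effects were called with the same sign for 14 genes, of which 9 were higher and 5 lower in Mut. Since Mut AdCtrl libraries started from other levels than Mut, the same sign does not mean a level further from WT. Cd72, a lectin receptor with an inhibitory motif, was at 6.28, 5.93 and 5.53 CPM in Mut, against 2.90, 1.92 and 1.82 CPM in WT. It was at 30.8, 26.2 and 30.6 CPM in Mut AdSmim30, against 22.1, 23.9 and 19.8 CPM in Mut AdCtrl. Neither pair overlapped, and the effects of 1.41 and 0.41 (edgeR quasi-likelihood adjusted p = 0.0348 for the virus) gave a sum of 1.82 (SE 0.23, adjusted p = 2.71e-07).

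Spp1, which encodes osteopontin, was at 1154, 1243 and 1207 CPM in Mut, against 679, 737 and 804 CPM in WT. It was at 1720, 1755 and 1765 CPM in Mut AdSmim30, against 1525, 1597 and 1497 CPM in Mut AdCtrl. Again neither pair overlapped, with effects of 0.70 and 0.18 and a sum of 0.88 (edgeR quasi-likelihood adjusted p = 1.79e-11). Lpl, the lipoprotein lipase, averaged 4927 ± 237 CPM in Mut and 3513 ± 175 CPM in WT, and 4217 ± 101 CPM in Mut AdSmim30 and 3683 ± 94.5 CPM in Mut AdCtrl (SD, n = 3 each). Its effects were 0.49 and 0.20 (adjusted p = 0.00195 for the virus, edgeR quasi-likelihood test).

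Dpysl2, a protein that binds the cytoskeleton, was at 379, 388 and 394 CPM in Mut, against 285, 292 and 307 CPM in WT. It was at 214, 216 and 215 CPM in Mut AdSmim30, against 187, 186 and 187 CPM in Mut AdCtrl. Replicates lay close together and neither pair overlapped, and Mut AdSmim30 lay nearer to the WT level than Mut AdCtrl did. The virus call of Dpysl2 (0.20, edgeR quasi-likelihood adjusted p = 0.00435) held in all 22 alternatives, as did that of C3. Efr3b, which anchors a lipid kinase at the plasma membrane, had effects of 0.73 and 0.42 and a sum of 1.16. Itgax, the integrin CD11c, had 0.16 and 0.19, Myo10, an unconventional myosin of filopodia, 0.16 and 0.20, and the chemokine Ccl9 0.12 and 0.23. The mutation call of Ccl9 was lost in 14 of 22 alternatives and its Mut and WT libraries overlapped.

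Downward, the complement gene C3 was at 270, 262 and 242 CPM in Mut, against 282, 275 and 297 CPM in WT. It was at 71.3, 71.3 and 76.6 CPM in Mut AdSmim30, against 94.9, 87.7 and 93.5 CPM in Mut AdCtrl, with no overlap in either pair. The effects were -0.15 and -0.33 (edgeR quasi-likelihood adjusted p = 0.0306 for the mutation and 0.000127 for the virus). The mutation call of C3 was lost in 5 of 22 alternatives, DESeq2 among them (adjusted p up to 0.186). Hspg2, the basement membrane proteoglycan perlecan, averaged 23.8 ± 2.50 CPM in Mut and 33.8 ± 4.88 CPM in WT, and 5.64 ± 0.433 CPM in Mut AdSmim30 and 9.13 ± 0.979 CPM in Mut AdCtrl (SD, n = 3 each). Its effects of -0.50 and -0.71 gave a sum of -1.21. Hspg2 and C3 are also made by fibroblasts, whose markers fell in the same libraries, and the part of that fall was not tested. Gdf15, a stress-induced cytokine, had effects of -0.43 and -0.20, Leng8 -0.25 and -0.20, and Ccdc88b -0.15 and -0.18.

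The split of 2 genes with opposite and 14 with the same sign rested on few libraries. It became 0 and 2 (C3 and Dpysl2) without Mut AdCtrl replicate 1, and 0 and 7, 0 and 6 or 0 and 3 without Mut AdSmim30 replicate 1, 2 or 3. Without Mut AdCtrl replicate 3 it was 8 and 13, without Mut replicate 1 it was 5 and 18, and without Mut replicate 3 it was 5 and 16. Without Mut replicate 2 it was 1 and 11, and without Mut AdCtrl replicate 2 it was 1 and 10. Of 22 alternatives, the virus call was lost in 6 for Cd72, 7 for Spp1 and 8 for Gdf15. Genes of same sign outnumbered those of opposite sign in each of the 22 alternatives. Fitted to its own 6 libraries, the virus comparison called 181 genes, and the split was 6 and 28. The 6 were Cxcl10, Dusp1, Fgd4, Insig1, Ndrg1 and Sorl1, and 11 of the 28 were among the 14. Without ribosomal RNA genes, whose share differed between Mut and WT, the split stayed at 2 and 14 with the 16 genes shared.

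Some genes of lipid synthesis and uptake rose with the Smim30 virus. Of 25 genes of cholesterol synthesis and uptake, Hsd17b7 rose and Insig1 fell with the mutation (median 0.04), and 6 rose and 0 fell with the virus (median 0.21), where 0.194% of all genes tested rose. At an unadjusted virus p under 0.05 stood 17 of the 25, all higher, against 7.5% of all genes tested in either direction. Hsd17b7, an enzyme of late cholesterol synthesis, had effects of 0.21 and 0.37 and was the member called for both. Of 22 alternatives, its mutation call was lost in 6, DESeq2 among them, and its virus call in 3.

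Insig1, which holds back the sterol-sensing machinery, was at 384, 379 and 398 CPM in Mut, against 435, 426 and 440 CPM in WT. It was at 222, 226 and 219 CPM in Mut AdSmim30, against 200, 210 and 186 CPM in Mut AdCtrl, and neither pair overlapped. Effects of -0.17 and 0.16 summed to -0.00 (95% interval -0.12 to 0.12), or 98.5% undone, but the virus effect did not pass in the edgeR quasi-likelihood test (adjusted p = 0.0598). Both virus groups of Insig1 stood below the Mut and WT ranges, so the share undone does not mean a return to the WT level. Of 16 fatty acid genes, 3 rose with the mutation and 2, Scd2 and Lpl, with the virus, and 10 had an unadjusted virus p under 0.05, all higher. Scd1, a fatty acid desaturase, had effects of 0.56 and 0.30, of which the second did not pass (adjusted p = 0.162, edgeR quasi-likelihood test), and a called sum of 0.86.

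Among stress, antioxidant and lysosomal genes, edgeR and DESeq2 called 0 virus effects. Of 23 targets of the stress factor ATF4, 7 rose and 1 fell with the mutation, and 3 had an unadjusted virus p under 0.05. Over all genes tested these shares were 4.92%, 3.73% and 7.5%. Mthfd2, a mitochondrial folate enzyme, was at 70.7, 69.9 and 75.5 CPM in Mut, against 49.3, 51.3 and 48.6 CPM in WT. It was at 49.7, 51.6 and 54.0 CPM in Mut AdSmim30, against 53.1, 50.3 and 51.7 CPM in Mut AdCtrl. The virus groups overlapped, with a virus effect of 0.00 (95% interval -0.12 to 0.13) beside a mutation effect of 0.54. Both virus groups of Mthfd2 stood near the WT range and below the Mut range. Its virus effect near 0 therefore does not show a mutation difference left in place. Asns, the asparagine synthetase, likewise had 0.00 (-0.21 to 0.22) beside 0.59.

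Of 26 targets of the antioxidant factor NRF2, 2 rose and 7 fell with the mutation, 5 had an unadjusted virus p under 0.05, all lower, limma-voom called 1 of these, and the sum was called below 0 for 6. Hmox1, the heme oxygenase, averaged 796 ± 50.9 CPM in Mut and 1004 ± 37.6 CPM in WT, and 262 ± 6.34 CPM in Mut AdSmim30 and 278 ± 16.2 CPM in Mut AdCtrl (SD, n = 3 each). Its sum of -0.42 was called (edgeR quasi-likelihood adjusted p = 1.33e-05). Of 35 lysosomal and proton pump genes, 3 rose and 12 fell with the mutation and 2 had an unadjusted virus p under 0.05. For comparison with the lists of this paragraph, the mutation raised 4.92% and lowered 3.73% of all genes tested. An unadjusted virus p under 0.05 was found for 7.5% of all genes. Tfeb, a regulator of lysosomal genes, had a mutation effect of -0.34, a virus effect of 0.04 (95% interval -0.09 to 0.16) and a sum of -0.31 that was called (edgeR quasi-likelihood adjusted p = 0.0284) but not in 8 of 21 alternatives, DESeq2 among them (adjusted p up to 0.095). Of 26 phagocytic and scavenger receptors, 8 rose and 3 fell with the mutation, and the integrins Itgam and Itgax rose with the virus.

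Genes called for the virus alone numbered 65, of which 55 also had a called sum. The 8 fibroblast and mesothelial markers that fell with the Smim30 virus were among the 65. They included Col3a1, Pdgfra and Wt1 (edgeR quasi-likelihood adjusted p = 1.15e-06, 1.06e-05 and 0.000126 for the virus). These 3 virus calls were lost in 0 of 22 alternatives. Itgam, the integrin CD11b of phagocytes, was at 88.8, 92.0 and 89.2 CPM in Mut, against 90.9, 86.8 and 88.6 CPM in WT. It was at 142, 134 and 138 CPM in Mut AdSmim30, against 114, 111 and 117 CPM in Mut AdCtrl. The mutation groups overlapped and the virus groups did not, with a virus effect of 0.28 (SE 0.05, edgeR quasi-likelihood adjusted p = 0.000338). Ccl6, a CC chemokine like Ccl9, averaged 278 ± 21.6 CPM in Mut and 249 ± 23.1 CPM in WT, and 521 ± 17.7 CPM in Mut AdSmim30 and 408 ± 15.6 CPM in Mut AdCtrl (SD, n = 3 each). Its virus effect was 0.35 (adjusted p = 0.00664, edgeR quasi-likelihood test). Leaving out Mut AdCtrl replicate 1 gave 0.33, which did not pass (edgeR adjusted p = 0.0575).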

How the data were processed

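Each deposited file holds unnormalised counts per gene, which the authors made with featureCounts 2.0.3 (paired, reverse strand, GENCODE M25, GRCm38), per the file headers. The library number in the header differs from that in the file name in all 18 files, so libraries were assigned by GEO's record of each file, and the headers do not check that assignment. The submitters' processing notes also name fastp, FastQC and HISAT2. Symbols came from GENCODE M21. Smim30 was taken to be 2610001J05Rik from general knowledge. The 12 libraries were fitted with edgeR 4.0.16 in R 4.3.3, with filterByExpr, TMM scaling, 4 group means and the robust quasi-likelihood test. CPM uses the same scaling. Intervals are at 95%. Depth is given with the results.

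Same-numbered libraries did not deviate together (r of -0.143 to 0.066 between groups), so the numbers were not taken as pairs. Between Mut AdSmim30 and Mut AdCtrl each library did match best with its own number, but only at r of 0.017, 0.036 and 0.009. A fit with a replicate block is among the alternatives.

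Members, lists and tests were chosen with earlier results of these data known. Genes named were Smim30, 9 inflammatory genes, those called for both effects, those with extreme sums, the largest bounded genes, and up to 3 per list and effect; others were named after their values were seen. In simulated 2-fold effects on 13133 genes, the fit put 100% of opposite, 96% of same-sign and 56% of unmoved genes into their class, with 1 false call of both. The simulated effects were placed in well expressed genes that had the same level in Mut AdCtrl as in Mut. The median size of the mutation effect in the data was 0.28 (log2), so these shares do not say how often effects of that size would be found. Alternatives were DESeq2 1.42.0, limma-voom (limma 3.58.1), RLE or no composition scaling, no filter or 1 CPM in at least 3 libraries, the fit over all 18 libraries, the replicate block, dropping ribosomal RNA genes, fitting each effect to its own 6 libraries, and omitting each library. The result for 1 gene is not reported here.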

Additional observations from a re-analysis of the deposited data

How the results depend on the processing

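Genes called for both effects depended most on the processing. Opposite signs were 5 with no filter, 1 with limma-voom, 1 with the replicate block and 6 with each effect on its own 6 libraries, and 0 to 8 over the fits that left out a library each. Same signs were 7 with DESeq2, 28 on own libraries, and 2 to 18 over those fits. Own libraries gave 181 virus genes. Mutation genes were 839 to 1280 with a library left out, virus genes 27 to 107, sums 514 to 920, the 50% contrast 196 to 517 (137 to 358 of them mutation genes) and the slope 0.0032 to 0.0297, and the slope was 0.0663 with no filter. The cause of these moves was not tested. The replicate block called 1112 mutation genes, 78 virus genes and 673 sums, so apart from genes called for both it moved no count by over 1.5 times. The genes named by rule gave 7361 unchanged calls, 65 gained, 370 lost and 0 turned. Genes at a few counts in the virus libraries, such as Il6 and Cxcl5, are limited by depth.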
